A study of Mus musculus with 4 samples.

Results

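The transcripts described here are those of the translation initiation factors in 4T1 cells. This metastatic line of mouse mammary carcinoma stands in for triple-negative breast tumours in many studies. They were chosen by name as a list of 36 genes, which holds the MCT-1/DENR proteins, the subunits of eIF2, eIF2B, eIF3 and eIF4, and a few further factors. Of these, 32 had a row carrying their symbol alone, out of 30142 genes with such a row and 65956 rows in all. Where a gene had more than 1 row, as Eif3d did, the brightest by mean signal stood for it. The row of Eif4a2 also carries 2 small nucleolar RNA genes, and Eif4a2, Eif2s1, Eif3g and Eif4g1 were not analysed here.

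RNA was measured on whole-transcript arrays in 2 groups of 2 arrays, labelled as independent biological replicates. The NC group was 4T1 cells with a scramble control, and the shMCT-1 group was 4T1 cells labelled as having MCT-1 silenced by a short hairpin RNA, grown as clones under puromycin. The labels do not say whether the NC cells were also kept in puromycin, how many clones the shMCT-1 arrays stand for or which part of the transcript the hairpin targets. All values are log2 expression summaries, so a difference of 1 is a 2-fold difference, and all differences are shMCT-1 minus NC.

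Translation of most messages starts when the small ribosomal subunit, loaded with eIF3, eIF1A and the eIF2 complex that carries the initiator tRNA, is brought to the capped 5′ end by the eIF4 proteins and scans to a start codon. eIF2B recharges eIF2 with GTP, and phosphorylated eIF2 blocks it, which is how stress kinases lower protein synthesis. MCT-1, encoded by Mcts1, pairs with DENR on the small subunit. The pair removes spent tRNA after termination and lets ribosomes restart behind short upstream reading frames, and Eif2d encodes a single protein with the domains of both partners.

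The promoter sequences are shown first, for the targeted gene, its intronless copy Mcts2, the partner Denr, and the 3 eIF3 genes to which the results return. RefSeq promoter windows of build GRCm38.p6, 300 bases long, were matched by symbol for 25 of the 32 measured genes. Each line gives 75 bases before the annotated start and 25 from the start on, 5′ to 3′ on the gene's strand. Capitals mark CCGGAAG on either strand, the core of the site bound by ETS factors, and in Eif3f the part, from the start on, of an unbroken run of C and T. Mcts1 has 2 annotated starts, shown in the windows chrX:38600396-38600495 and chrX:38601184-38601283, both on the plus strand. The other windows are chr2:152687073-152687172 (plus, Mcts2), chr5:123907200-123907299 (plus, Denr), chr7:108934340-108934439 (plus, Eif3f), chr15:79075148-79075247 (plus, Eif3l) and chr7:126566342-126566441 (minus, Eif3c).
Mcts1, first start: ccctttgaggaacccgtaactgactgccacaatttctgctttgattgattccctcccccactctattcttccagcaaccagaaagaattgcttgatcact
Mcts1, second start: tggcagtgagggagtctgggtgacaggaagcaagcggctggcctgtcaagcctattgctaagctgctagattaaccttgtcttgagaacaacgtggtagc
Mcts2: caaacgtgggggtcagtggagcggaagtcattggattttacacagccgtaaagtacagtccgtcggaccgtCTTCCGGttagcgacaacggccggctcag
Denr: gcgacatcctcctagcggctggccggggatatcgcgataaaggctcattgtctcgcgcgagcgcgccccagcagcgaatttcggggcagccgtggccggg
Eif3f: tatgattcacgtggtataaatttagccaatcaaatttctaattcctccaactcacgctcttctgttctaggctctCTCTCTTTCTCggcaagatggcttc
Eif3l: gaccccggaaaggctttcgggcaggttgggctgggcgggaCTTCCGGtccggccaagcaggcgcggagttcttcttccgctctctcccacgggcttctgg
Eif3c: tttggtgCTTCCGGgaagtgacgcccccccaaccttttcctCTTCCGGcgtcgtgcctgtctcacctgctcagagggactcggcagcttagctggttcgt

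The initiation factor promoters were rich in CG dinucleotides, with a median of 24 per 300-base window against 8 over 27025 genes. For a gene with more than 1 window, the highest number was taken. Mcts1 stood at the low end, with 3 and 2 in its windows, whereas Mcts2 had 25 and Denr 31. CCGGAAG was found on either strand in 9 of the 25 genes (36%) and in 9.93% of all genes, and the GC box GGGCGG in 17 (68.0%) against 38.2%. A gene counted if any of its windows held the letters, so genes with several annotated starts had more bases to match. The core of the palindromic NRF1 motif was in 4 (16%) against 5.19%, AAGATGGC, a form bound by YY1, in 3 (12%) against 3.19%, and TATAAA in 2 (8.0%) against 15.7%. TGACGTCA, the cyclic AMP response element, and TGATGNAA, the core of the element bound by ATF4, were in 0 of 25 genes, against 2.03% and 4.51% of all genes. The mark of messages whose translation follows mTOR is a C at the start in a run of C and T. A C at the start with at least 5 unbroken bases of C or T counted from it was met in 1 of 25 (Eif3f, with 11 such bases from the start on) and in 3.01% of all genes. A match describes these letters and does not show that a factor binds. These comparisons are with all genes, and no set of equally bright genes was counted.

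The 4 arrays were checked before the comparison. The epithelial markers Cdh1, Epcam, Krt8, Krt18 and Krt14 lay between 11.12 and 16.73 on all arrays. Of these, the basal keratin Krt14 differed most between the groups, at 12.92 and 12.76 in NC and 11.12 and 11.20 in the arrays labelled shMCT-1 (difference -1.68, SE 0.118, adjusted p = 0.669, limma). Over all arrays, the measured fibroblast, endothelial and lymphocyte markers lay between 2.80 and 4.24. Of 5 macrophage markers, Ptprc, Adgre1 and Lyz2 were at 3.49 or below, Csf1r lay between 4.47 and 6.07 and Cd68 between 8.26 and 10.15, with NC replicate 1 the highest for both. NC replicate 1 stood apart in 7 interferon-stimulated genes, which were listed because they mark this array, with earlier results of these data known. It was the highest array for 7 of 7, a count that the choice of genes had fixed and that is no test. Its median was 2.63 above each gene's mean, where NC replicate 2 and shMCT-1 replicates 1 and 2 were at -1.01, -0.44 and -1.05. Results are therefore also given without NC replicate 1.

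The targeted transcript was not detectably lower. Mcts1 was at 7.86 and 8.05 in NC replicates 1 and 2 and at 7.81 and 7.89 in shMCT-1 replicates 1 and 2. Both groups overlapped, since NC replicate 1 lay between the shMCT-1 arrays. The difference was -0.10 with an SE of 0.122 and an adjusted p of 0.945 (limma). Its 95% interval ran from -0.42, a 1.34-fold lower level, to 0.22. Since the label is not borne out by the transcript, the group is called the arrays labelled shMCT-1. Without each array in turn the difference ran from -0.20 to -0.0095, lower each time. In bulk RNA, fewer cells that carry a transcript and less of it per cell cannot be told apart.

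None of the 32 genes passed. With limma and Benjamini-Hochberg adjustment over all rows, 0 of 32 had an adjusted p under 0.05, against 0% of all rows, and 0 had an unadjusted p under 0.05, against 5.61% of all rows (3.08% higher and 2.52% lower) and 8.77% of named rows at least as bright as the dimmest factor. Their adjusted p ran from 0.882 for Eif2s2 and Eif3f to 0.991 for Eif3b and Eif1a. For 27 of the 32 the 95% interval lay within a 2-fold difference in either direction, and the 5 others were Mcts2, Eif2b1, Eif2b3, Eif1ad and Eif6. A change smaller than these intervals was not detectable with 2 arrays a group, and the smallest two-sided p that an exact permutation of 4 arrays can give is 0.333.

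**Figure D1:**
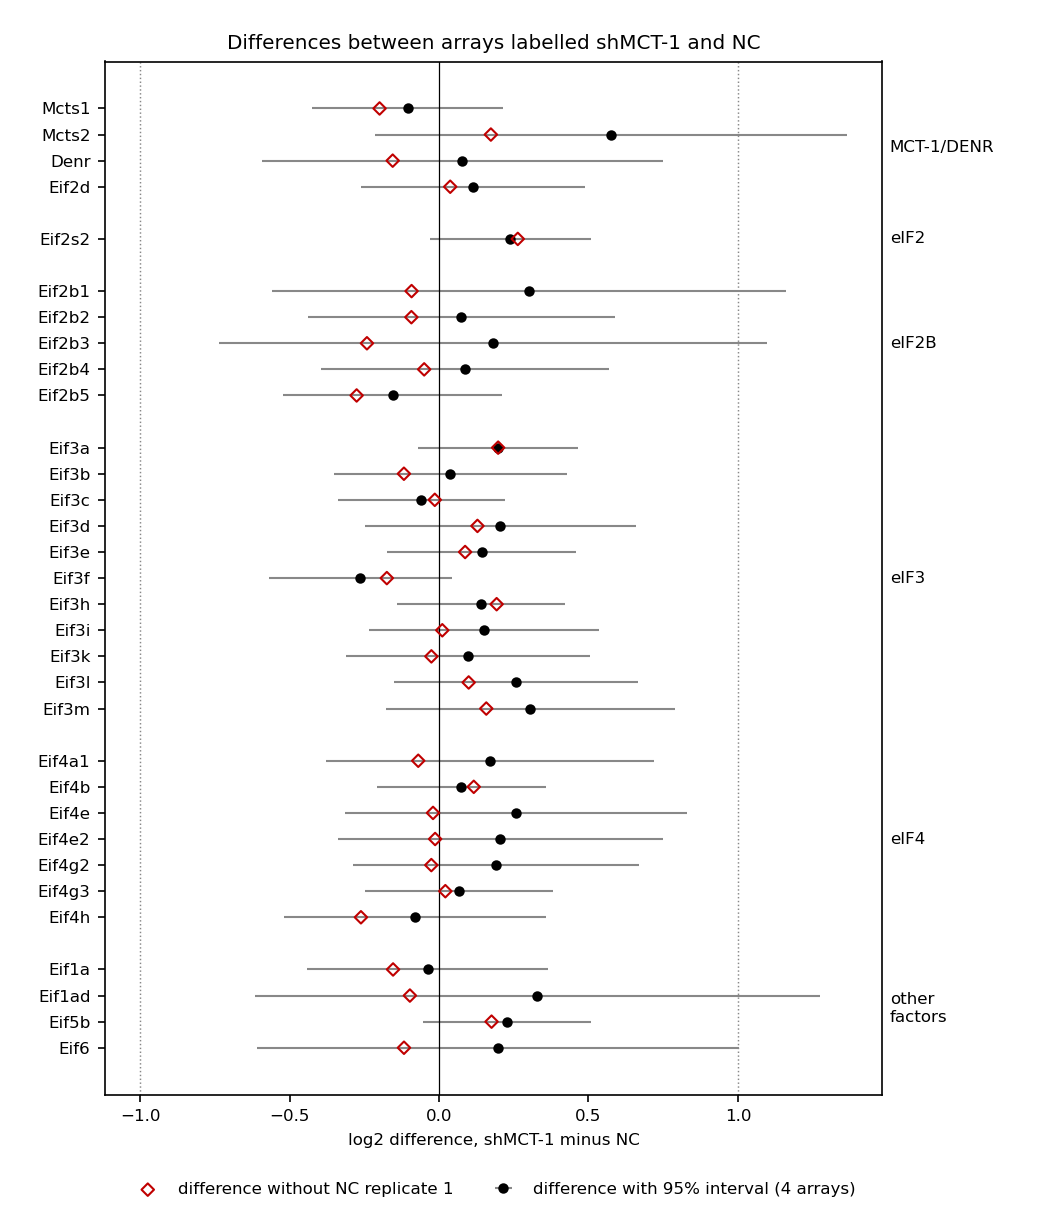
Log2 difference, shMCT-1 minus NC, for the 32 measured initiation factor genes by complex. Black points and bars are limma estimates with 95% intervals (2 arrays a group), open red diamonds the differences without NC replicate 1, and dotted lines a 2-fold difference. All 32 intervals include 0, and most diamonds lie to the left of the points.

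The means of the initiation factors leaned upward, and the lean was lost without NC replicate 1 or shMCT-1 replicate 2. In the arrays labelled shMCT-1, 26 of 32 had the higher mean and 6 the lower, with a median difference of 0.15. Over all rows 56.4% were higher and the median was 0.024, and over named rows at least as bright as the dimmest factor 53.7% were higher. Initiation factors are bright, and bright rows leaned upward as a whole. Of genes with a signal of 12 or more 62.6% were higher, against 16 of the 19 factors in that range, and of those between the dimmest factor and 12, 51.1% were higher against 10 of 13 factors. Without NC replicate 1 the count was 13 of 32 with a median of -0.023, where 54.2% of all rows and 46.0% of named rows at least as bright as the dimmest factor were higher. Without shMCT-1 replicate 2 it was 17 of 32 with a median of 0.0066, where the median of all rows was 0.030. Without either of the remaining arrays it was 28 of 32. For these fits the share of all rows that was higher was not counted.

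**Figure D2:**
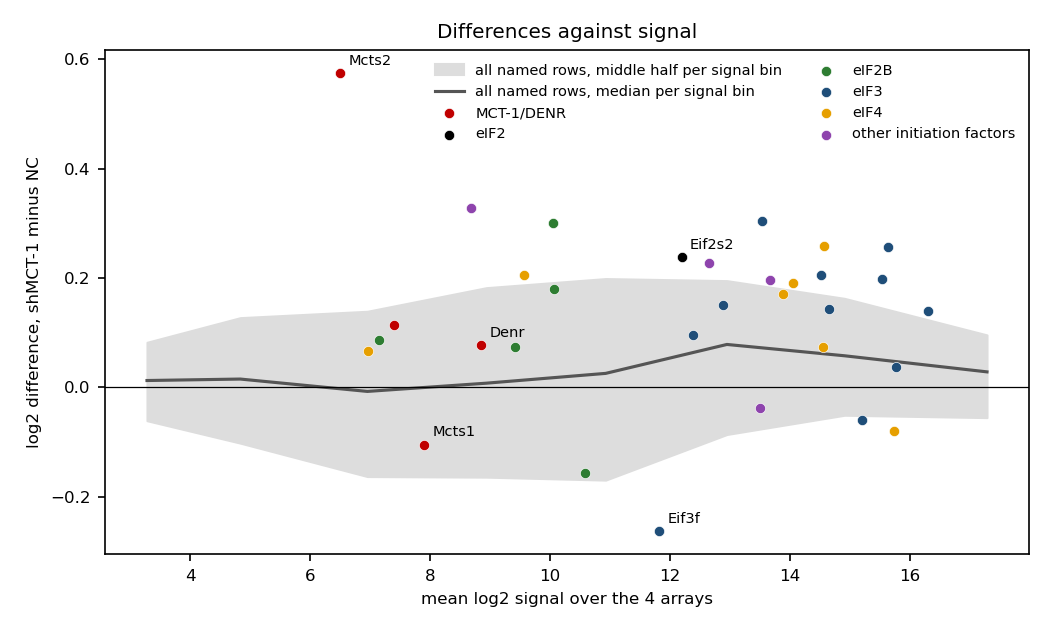
Log2 difference, shMCT-1 minus NC, against mean log2 signal for the 32 initiation factor genes, coloured by complex. The line and grey band are the median and the range from the 25th to the 75th percentile of all named rows in signal bins. The line rises to 0.079 between 12 and 14. Mcts2 at 0.57 and Eif3f at -0.26, the highest and the lowest difference, lie outside the band, as do several other factors.

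The 4 arrays kept much the same order over most of the factors. NC replicate 1 was the lowest of the 4 arrays for 24 of the 32 factors, against 32.6% of all rows and 41.0% of named rows at least as bright as the dimmest factor. The highest was shMCT-1 replicate 2 for 21 of them. Replicate 2 lay above replicate 1 in both groups for 25 of 32, where this held for 30.3% of all rows and 50.5% of the bright named ones. As medians over the 32 genes, relative to each gene's mean, the arrays stood at -0.18 and 0.10 in NC replicates 1 and 2 and at -0.066 and 0.18 in shMCT-1 replicates 1 and 2. The part that the state of the cells on NC replicate 1 has in the lean was not tested.

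**Figure D3:**
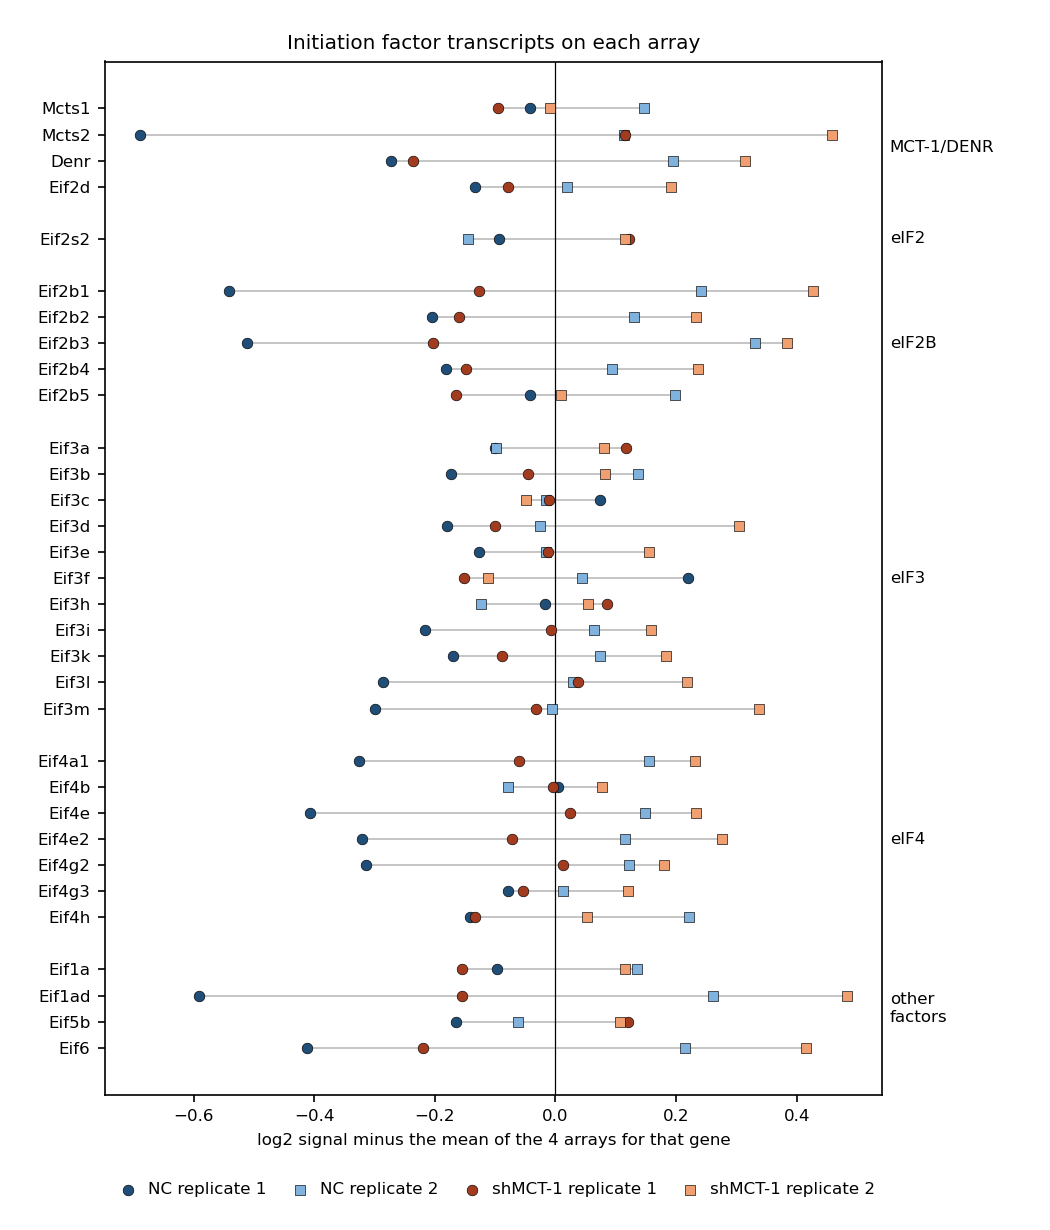
Log2 signal of each initiation factor gene on each array, relative to that gene's mean over the 4 arrays (blue NC, red and orange shMCT-1, circles replicate 1, squares replicate 2). Dark blue circles (NC replicate 1) are the leftmost point for 24 of 32 genes, and orange squares (shMCT-1 replicate 2) the rightmost for 21.

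The groups lay fully apart, with both arrays of one above both of the other, for 8 of 32 factors (25%), against 33.9% of all rows. In 7 the arrays labelled shMCT-1 were higher, namely Mcts2, Eif2s2, Eif3a, Eif3e, Eif3h, Eif3l and Eif5b (21.9%, against 19.8% of all rows). In 1 they were lower, Eif3f (14.0% of all rows). Among named rows at least as bright as the dimmest factor, 18.8% were apart and higher. The share apart and higher is thus near that of all rows. The share apart in either direction and the 1 of 32 apart and lower are below those of all rows. The gap between the nearest arrays of the groups was 0.21 for Eif2s2, 0.18 for Eif3a, 0.17 for Eif5b and 0.16 for Eif3f, but 0.0017 for Mcts2, 0.0029 for Eif3e and 0.0083 for Eif3l.

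Among the MCT-1/DENR proteins, Mcts2 had the largest difference. Mcts2, an intronless copy of Mcts1 on chromosome 2 that encodes a near-identical protein, was at 5.81 and 6.61 in NC and at 6.61 and 6.96 in the arrays labelled shMCT-1. NC replicate 1 was the lowest array by 0.80, and NC replicate 2 and shMCT-1 replicate 1 were almost level. The difference was 0.57 (SE 0.302, 95% interval -0.21 to 1.36, adjusted p = 0.896, limma). Without NC replicate 1 it was 0.17. In the promoter windows shown, CCGGAAG was in that of Mcts2 and not in those of Mcts1, and the windows were not aligned. Probes for copies of a gene may pick up both transcripts, which leaves the value of each uncertain. Transcript and probe sequences of the pair were not compared.

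Denr, the partner of MCT-1, was at 8.58 and 9.04 in NC and at 8.61 and 9.16 in the arrays labelled shMCT-1. Each group held a low and a high array of almost the same levels, 0.47 and 0.55 apart within the groups, while the groups differed by 0.078 (SE 0.256, 95% interval -0.59 to 0.75). Eif2d was at 7.27 and 7.42 in NC and at 7.32 and 7.59 in the arrays labelled shMCT-1, a difference of 0.11 (SE 0.143) with overlapping groups. Both genes changed sign in some fit with an array left out. The median of the 4 genes was 0.096 with all arrays, -0.059 without NC replicate 1, and -0.084 when shMCT-1 replicate 2 was left out.

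Eif2s2, the beta subunit of eIF2 and the only measured subunit among the listed ones, had the lowest p of the 32. It was at 12.10 and 12.05 in NC and at 12.32 and 12.31 in the arrays labelled shMCT-1. Its replicates were close together in both groups, and the groups lay apart. The level was 1.18-fold higher (log2 difference 0.24, SE 0.103, 95% interval -0.031 to 0.51, adjusted p = 0.882, limma), and with 1 array left out the difference ran from 0.21 to 0.26. The gamma subunit Eif2s3x, taken from the wider pathway list, was at 16.52 and 16.83 in NC and at 16.33 and 16.50 in the arrays labelled shMCT-1, with groups apart by 0.024 and a difference of -0.26 (SE 0.153, adjusted p = 0.898, limma). The measured subunits of this complex thus lay on opposite sides, and neither passed.

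The eIF2B genes, which encode the exchange factor that recharges eIF2, followed replicate number rather than group. Eif2b1, its alpha subunit, was at 9.52 and 10.30 in NC and at 9.93 and 10.48 in the arrays labelled shMCT-1. Eif2b3, the gamma subunit, was at 9.56 and 10.40 in NC and at 9.87 and 10.45 in the arrays labelled shMCT-1. In both genes each replicate 2 array exceeded each replicate 1 array. The differences of 0.30 (SE 0.329) and 0.18 (SE 0.350) were smaller than their errors, and the NC arrays were 0.78 and 0.84 apart.

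The beta and delta subunits Eif2b2 and Eif2b4 differed by 0.074 and 0.087 with the same order of arrays. Eif2b5, the catalytic epsilon subunit, was at 10.54 and 10.78 in NC and at 10.42 and 10.59 in the arrays labelled shMCT-1. It was the 1 lower member of the 5, at -0.16 (SE 0.140), and remained lower with each array left out (-0.28 to -0.035). Replicate 2 was the higher array in both groups for 5 of 5 eIF2B genes. Of the 5, 4 had the higher mean with all arrays and 0 without NC replicate 1, where the median went from 0.087 to -0.093, and it was -0.11 without shMCT-1 replicate 2.

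eIF3, the scaffold of the preinitiation complex with the most subunits of any initiation factor, held most of the factors whose sign, though not always size, stayed with each array left out. Of 11 measured subunits, 9 had the higher mean and 2 the lower, with a median of 0.14, and 7 were higher and 2 lower in each of the 4 fits with 1 array left out. Without NC replicate 1 the count was 7 higher and the median 0.087. Leaving out shMCT-1 replicate 2 instead gave a median of 0.059. None passed, and the adjusted p of the 11 ran from 0.882 to 0.991 (limma).

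Eif3a, the largest subunit and part of the core, was at 15.44 on both NC arrays and at 15.66 and 15.62 on the arrays labelled shMCT-1. The replicates nearly coincided, and the groups lay apart by a difference of 0.20 (SE 0.102, 95% interval -0.069 to 0.47). Eif3h, which like Eif3f carries an MPN domain, was at 16.29 and 16.19 in NC and at 16.39 and 16.36 in the arrays labelled shMCT-1, a difference of 0.14 (SE 0.108) with the groups apart. Eif3l, which binds next to Eif3k in an outer module, was at 15.35 and 15.66 in NC and at 15.67 and 15.85 in the arrays labelled shMCT-1. Its groups touched, with NC replicate 2 and shMCT-1 replicate 1 almost level, and the difference of 0.26 (SE 0.156) was 0.099 without NC replicate 1.

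Eif3m had the largest difference of the subunits. It was at 13.24 and 13.53 in NC and at 13.50 and 13.87 in the arrays labelled shMCT-1, so the groups overlapped at 0.31 (SE 0.185, adjusted p = 0.900, limma), and the value was 0.16 without NC replicate 1. The cap-binding subunit Eif3d, the PCI-domain subunit Eif3e and the core-associated Eif3i differed by 0.21, 0.14 and 0.15, but for Eif3d the difference was 0.0031 without shMCT-1 replicate 2, and for Eif3i 0.011 without NC replicate 1. Eif3b, a core subunit, and Eif3k differed by 0.037 and 0.096 and turned sign with 1 array left out, and Eif3b also after a further quantile normalization (-0.073).

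Eif3f was the subunit on the other side. It was at 12.04 and 11.87 in NC and at 11.67 and 11.71 in the arrays labelled shMCT-1, with both of these below both NC arrays. NC replicate 1 was the highest array here, unlike in most factors. The level was 1.20-fold lower (log2 difference -0.26, SE 0.117, 95% interval -0.57 to 0.044, adjusted p = 0.882, limma), and from -0.35 to -0.17 with 1 array left out. It was also the 1 gene, among the 25 with promoter windows, with a C at the start and at least 5 unbroken bases of C or T counted from it. Eif3c, a core subunit with 2 copies of CCGGAAG in the window shown, was at 15.29 and 15.20 in NC and at 15.20 and 15.16 in the arrays labelled shMCT-1, a difference of -0.059 (SE 0.106) within the spread of the NC arrays.

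The eIF4 genes, for cap binding and unwinding of the 5′ end, also followed NC replicate 1. Eif4e, the cap-binding protein, was at 14.17 and 14.72 in NC and at 14.60 and 14.81 in the arrays labelled shMCT-1. The low array was NC replicate 1, and the difference of 0.26 (SE 0.219) became -0.020 without it. Eif4a1, the RNA helicase, was at 13.57 and 14.05 in NC and at 13.83 and 14.13 in the arrays labelled shMCT-1. Its difference of 0.17 (SE 0.209) became -0.070 without that array. Eif4g2, the scaffold DAP5, which lacks the site for the cap-binding protein, was at 13.74 and 14.17 in NC and at 14.06 and 14.23 in the arrays labelled shMCT-1, and 0.19 (SE 0.183) became -0.026.

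The other 4 measured eIF4 genes were nearer to 0 or had the same order of arrays. Eif4e2, a cap-binding homologue linked to repression, was at 9.25 and 9.69 in NC and at 9.50 and 9.85 in the arrays labelled shMCT-1, a difference of 0.20 (SE 0.208). Eif4b, a cofactor of the helicase, was at 14.55 and 14.47 in NC and at 14.54 and 14.62 in the arrays labelled shMCT-1. It was among the least variable factors, and its difference of 0.074 (SE 0.108) stayed above 0 with each array left out. Eif4g3, a scaffold related to Eif4g1, differed by 0.067 and Eif4h, a further helicase cofactor, by -0.080, and both turned sign with 1 array left out. Of the 7 genes, 6 had the higher mean with all arrays and 2 without NC replicate 1, and the median went from 0.17 to -0.020, with 0.031 without shMCT-1 replicate 2.

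**Figure D4:**
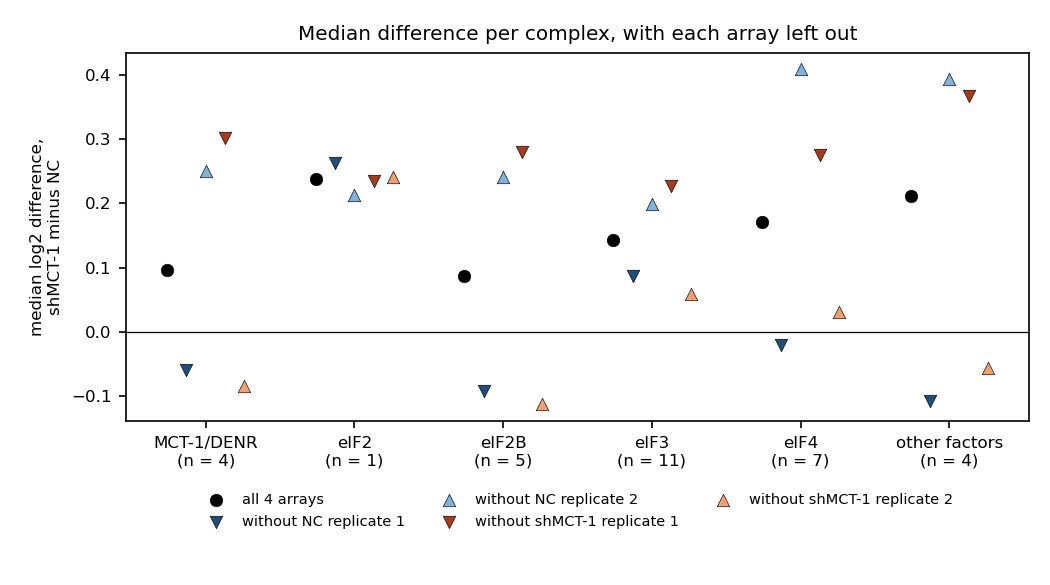
Median log2 difference, shMCT-1 minus NC, over the measured genes of each complex, with all arrays (black circles) and with each array left out (triangles). The medians of MCT-1/DENR, eIF2B, eIF4 and the other factors pass below 0 without NC replicate 1, that of eIF3 lies between 0.059 and 0.23, and eIF2 is 1 gene, Eif2s2.

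Of the factors outside these complexes, Eif5b lay apart between the groups. Eif5b, the GTPase that joins the ribosomal subunits, was at 12.49 and 12.59 in NC and at 12.77 and 12.76 in the arrays labelled shMCT-1. The level was 1.17-fold higher (log2 difference 0.23, SE 0.107, 95% interval -0.053 to 0.51, adjusted p = 0.889, limma). With 1 array left out it ran from 0.18 to 0.28. Eif6, which keeps the large subunit from joining too early, was at 13.26 and 13.89 in NC and at 13.45 and 14.09 in the arrays labelled shMCT-1. Here both groups spanned nearly the same range, and the difference of 0.20 (SE 0.308) became -0.12 without NC replicate 1.

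Eif1ad, a protein with a domain like that of eIF1A, was at 8.10 and 8.95 in NC and at 8.54 and 9.17 in the arrays labelled shMCT-1, a difference of 0.33 with the largest error of the 32 (SE 0.361). Eif1a, a scanning factor, was at 13.41 and 13.64 in NC and at 13.35 and 13.62 in the arrays labelled shMCT-1, and differed by -0.038 (SE 0.154). In both the groups overlapped and the sign turned with 1 array left out. Eif1a and Eif1ax are likewise near-identical copies, and Eif1ax was at 0.12 (SE 0.149). The median of Eif5b, Eif6, Eif1ad and Eif1a was 0.21 with all arrays, -0.11 without NC replicate 1, and -0.056 when shMCT-1 replicate 2 was left out.

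On most chromosomes that hold factors, 15 and 2 among them, the factors leaned the way of their chromosome, and on some they did not. The chromosomes were looked at after the values were seen. Among named rows at least as bright as the dimmest factor, genes of chromosome 15 had the highest median difference of the 20 chromosomes (0.16, 78.3% higher, 346 rows), and chromosome 2 the next (0.13, 72.0% higher, 830 rows). Without NC replicate 1 these medians were 0.13 and 0.095. The 5 measured factors on chromosome 15, Eif3d, Eif3e, Eif3h, Eif3l and Eif4b, were all higher in each fit with 1 array left out, with a median of 0.14 near that of their chromosome. On chromosome 2 lie Mcts2, Eif2s2, Eif3m and Eif6, with a median of 0.27, of which 3 stayed higher in each such fit. On chromosome 7, whose median was 0.0049, 2 of 4 factors were lower (Eif3c at -0.059 and Eif3f at -0.26) and 2 higher (Eif3k at 0.096 and Eif4g2 at 0.19). On chromosome 5 the median of named rows was -0.019, but 4 of 5 factors were higher with a median of 0.078 (Denr, Eif2b1, Eif2b4 and Eif3b, with Eif4h lower), and none kept a higher mean in each such fit. Eif2b2, at 0.074, also lay opposite to the median of its chromosome 12, -0.081, and Mcts1, at -0.10, to that of chromosome X, 0.0033. All factors were higher on chromosomes 1 (3 factors, chromosome median 0.091), 4 (3 factors, 0.031) and 19 (2 factors, 0.076). The factor on each of chromosomes 3, 11, 16 and 18 also had the sign of its chromosome's median. The part of the chromosome in the differences was not tested.

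The wider pathway lists held 19 further factors and recycling proteins, 7 genes that control or follow eIF2 and 11 regulators of cap binding, and 31 of these were measured. None passed, 0 had an unadjusted p under 0.05 (limma), and 18 had the higher and 13 the lower mean with a median of 0.045. Further factors and recycling proteins were higher in 9 of 15, with a median of 0.11 that became -0.078 without NC replicate 1. Eif3j2, which encodes a loosely bound eIF3 subunit and shares sequence with Eif3j1, was at 0.35 (SE 0.221).

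Of the 7 genes that control or follow eIF2, 4 had the higher mean, and some followed NC replicate 1. Eif2ak2, the double-stranded RNA kinase PKR and itself induced by interferon, was at 10.90 and 9.49 in NC and at 10.02 and 9.42 in the arrays labelled shMCT-1. It was highest on the array where interferon genes were highest, and its difference of -0.47 (SE 0.510) became 0.24 without that array. Eif2ak3, the endoplasmic reticulum kinase PERK, was at 7.53 and 7.04 in NC and at 7.22 and 6.99 in the arrays labelled shMCT-1, a difference of -0.18 (SE 0.204). The haem-regulated kinase Eif2ak1 and the amino acid sensor Eif2ak4 were at 0.11 and 0.12, and the groups lay apart for the second.

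Among the same genes that control or follow eIF2, Atf4 and Ppp1r15b also lay apart between the groups. Over the wider lists the groups lay apart for 9 of 31 genes (29.0%), against 33.9% of all rows, so separation does not mark these genes out. Atf4, the stress transcription factor whose message restarts translation behind upstream reading frames, was at 9.94 and 9.37 in NC and at 10.00 and 10.18 in the arrays labelled shMCT-1, a difference of 0.44 (SE 0.219, adjusted p = 0.894, limma). It ran from 0.15 without NC replicate 2 to 0.72 without NC replicate 1. Ppp1r15b, the constitutive subunit of the eIF2 phosphatase, was at 10.10 and 10.18 in NC and at 10.35 and 10.49 in the arrays labelled shMCT-1. Its difference of 0.28 (SE 0.114, adjusted p = 0.882, limma) had the lowest unadjusted p of the wider list, and with 1 array left out it ran from 0.22 to 0.35. The stress-induced subunit Ppp1r15a was at -0.26 (SE 0.194).

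Of the 9 measured regulators of cap binding, 5 had the higher and 4 the lower mean, with a median of 0.0028, and the lower ones with the largest differences were highest on NC replicate 1. Eif4ebp1, which holds the cap-binding protein in an inactive state, was at 12.26 and 11.61 in NC and at 11.61 and 11.21 in the arrays labelled shMCT-1, a difference of -0.53 (SE 0.269, adjusted p = 0.894, limma) and of -0.20 without that array. Mknk2, a kinase of Eif4e, was at 10.75 and 10.43 in NC and at 10.44 and 10.16 in the arrays labelled shMCT-1, a difference of -0.29 (SE 0.170). Pdcd4, an inhibitor of the helicase that was singled out after its values were seen, was at 10.997 and 8.49 in NC and at 9.08 and 7.79 in the arrays labelled shMCT-1. This gene varied most of the wider list, and its difference of -1.31 (SE 0.924) became -0.053 without NC replicate 1. Eif4ebp2 was at 0.045, Mtor at 0.0028 and Larp1 at -0.016. The row of Eif4ebp3 is shared with another symbol, and Eif4ebp3 was not analysed here.

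**Figure D5:**
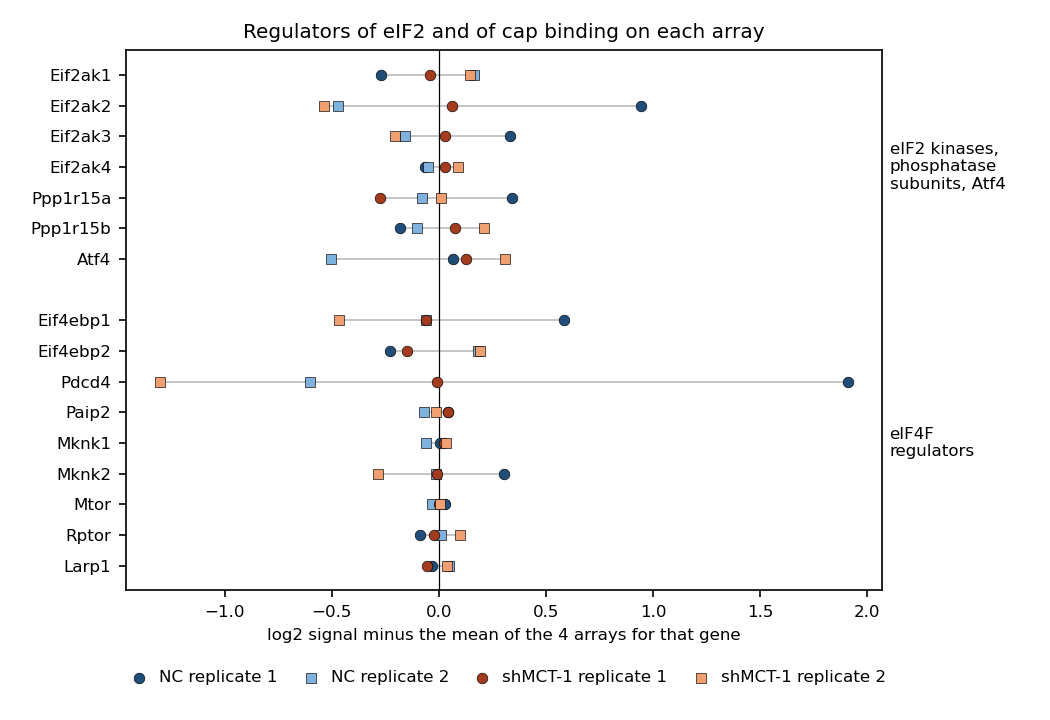
Log2 signal of the measured regulators of eIF2 and of cap binding on each array, relative to each gene's mean over the 4 arrays (colours as for the factors). NC replicate 1 (dark blue circles) lies far to the right for Pdcd4, Eif2ak2 and Eif4ebp1, and the groups are apart for Atf4, Ppp1r15b, Eif2ak4 and Mknk1.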

How the data were processed

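The 4 columns were matched to their arrays by accession, and groups were taken from the titles. The deposited values are gene-level log2 summaries, which the authors made with Affymetrix Expression Console and RMA, per the submitters' processing notes. No source used here names the versions, the options or a genome build. The range from 1.29 to 19.9 fits a log2 scale, and no further transformation was made. Log2 differences of very dim or very bright rows can be compressed.

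Of 65956 rows, 30604 carried 1 gene symbol, 2146 several, and 33206 were unnamed. Symbols of 827 rows were updated by gene ID through the RefSeq table of GRCm38.p6.

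The comparison was fitted on all rows with limma 3.58.1 in R 4.3.3 (lmFit and eBayes, no trend, not robust, 2 residual and 2.72 prior degrees of freedom), two-sided. P-values were adjusted over all rows (Benjamini-Hochberg), with the threshold at 0.05. In data simulated for 65956 rows, changes of 1, 2, 3 and 4 on the log2 scale were recovered in 1.33%, 45.3%, 71.3% and 79.3% of cases. Nothing says that the replicates came from separate clones, so errors cover the spread between these samples, and the number of arrays limits the precision.

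Members and pathway lists were chosen with earlier results of these data known. The text names all measured members, the eIF2 kinases and 4E-BPs, and the 3 genes of the wider lists with the lowest p in each direction. Others were named after their values were seen. Alternatives were another variance prior, no moderation, a filter on dim rows, named rows only, other scalings, the mean over a gene's rows, the replicate block and leaving out each array.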

Additional observations from a re-analysis of the deposited data

How the results depend on the processing

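Under all 13 alternatives 0 rows and 0 of the 32 factors had an adjusted p under 0.05 (limma). The count of factors at an unadjusted p under 0.05, 0 as reported, was 3 without moderation of the variance (Eif2s2, Eif3a and Eif5b, beside 3418 of 65956 rows), 1 with single-symbol rows only (Eif2s2, beside 2034 of 30604 rows) and 1 after a further quantile normalization (Eif3f, beside 3825 of 65956 rows). With 1 array left out it was 0 to 2 (Mcts2 and Eif4e without NC replicate 2), beside 1984 to 5926 rows. With the replicate block it was 3 (Mcts2, Eif3m and Eif1ad, adjusted p 0.345, 0.411 and 0.416, limma), and unadjusted calls over all rows went from 3698 to 7537. The numbers may not pair the samples, since the labels tie them to no shared batch, although deviations of the replicate 1 arrays correlated at 0.42 over all rows with 2 pairs. Fully separated groups numbered 11 to 28 with 1 array left out, against 8 as reported. Groups separate more easily with 1 array against 2, and the share of all rows that did so was not counted. The higher counts can therefore not be read as a property of the factors. The eIF2 value of 0.24 was 0.20 after quantile normalization and 0.21 after median centring. Quantile normalization also took the median of eIF4 from 0.17 to 0.053, of eIF3 from 0.14 to 0.074 and of the other factors from 0.21 to 0.14, while the median of all rows went from 0.024 to 0.0021. The median of the other factors ran from -0.11 to 0.39 with 1 array left out, and Eif3b was -0.073 after quantile normalization. With 1 array left out, 17 factors turned sign: Denr (-0.20 to 0.35), Eif2d (-0.021 to 0.25), Eif2b1 (-0.092 to 0.69), Eif2b2 (-0.12 to 0.27), Eif2b3 (-0.24 to 0.60), Eif2b4 (-0.11 to 0.28), Eif3b (-0.12 to 0.19), Eif3k (-0.040 to 0.23), Eif4a1 (-0.070 to 0.41), Eif4e (-0.020 to 0.54), Eif4e2 (-0.013 to 0.42), Eif4g2 (-0.026 to 0.41), Eif4g3 (-0.021 to 0.15), Eif4h (-0.26 to 0.10), Eif1a (-0.17 to 0.097), Eif1ad (-0.098 to 0.76) and Eif6 (-0.12 to 0.51). The cause was not tested. The other 15 kept their sign in these 4 fits.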
